A study of Danio rerio with 6 samples.

Results

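The microRNAs (miRNAs) miR-31, miR-155 and miR-21 were followed in small RNA libraries of the adult zebrafish telencephalon, the front part of the forebrain. They were taken as the rows dre-mir-31 (ENSDARG00000080961), mir155 (ENSDARG00000081781) and MIR21 (ENSDARG00000080484) of the count tables, 3 of 434 annotated miRNA loci. The 3 loci were selected on their difference between injured and control hemispheres in these same libraries, so that difference is described here without a test. There were 3 libraries of healthy, untreated telencephalic hemispheres (control) and 3 of injured ones (injured). According to the methods, adult fish were injured by pushing a syringe needle into 1 hemisphere, RNA was prepared 5 days post lesion from hemispheres processed separately, and the hemisphere without injury was the control. The sources used here name no transgene or mutant and give no strain, sex or number of fish. The labels do not say that the libraries of a group came from separate fish, so p-values cover the spread between these libraries, which may be partly technical.

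A miRNA is a short RNA that is cut from a hairpin precursor and loaded into a silencing complex. Its seed, a short run of bases near its 5′ end, pairs with sites in mRNAs, which are then translated less or degraded. miR-21 is among the miRNAs most often reported as induced in damaged and inflamed tissue of mammals, where the translation inhibitor PDCD4 is a well-known target. miR-155 is known from activated macrophages and lymphocytes of mammals, in which it acts on the cytokine signalling inhibitor SOCS1. miR-31 is known in mammals from the keratinocytes at wound edges and from epithelial tumours.

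The control libraries held 2475462 to 4008607 reads at miRNA loci and the injured libraries 11473850 to 14545864, so the injured libraries were also the deeper ones and depth and injury cannot be told apart. Levels are given as reads per 1000000 reads at miRNA loci (RPM). Inserts had the length of mature miRNAs, so levels of different loci need no correction for length, although adaptors are joined to different small RNAs with unequal efficiency and levels of different miRNAs are therefore only roughly comparable. The tissue was checked against mir-124, which marks neurons. Reads were found at 7 mir-124 loci in each library, with low mean levels of 1.37 to 18.5 RPM per locus in control libraries. The limit on mapping quality can remove reads that fit several copies of a miRNA equally well, and its part in these levels was not tested.

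miR-31 stood at 48.4, 46.9 and 42.4 RPM in control 1, 2 and 3, from 127, 188 and 105 reads. In injured 1, 2 and 3 it stood at 266, 271 and 221 RPM, from 3868, 3123 and 2538 reads. Each injured library was above each control library, and the lowest injured value was 4.57 times the highest control value. The group means were 45.9 ± 3.09 RPM in control and 253 ± 27.4 RPM in injured hemispheres (SD, n = 3 each), a ratio of 5.51. On the log2 scale the groups differed by 2.45 (SE 0.11, n = 3 each). The coefficient of variation of the controls, 6.74%, was below the 8.65% that read counting alone gives at their depth. In the injured libraries it was 10.8%, against 1.79% from counting alone.

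By group mean miR-155 had the lowest level of these miRNAs in both groups, level with miR-31 in control 2. It stood at 22.1, 46.9 and 36.0 RPM in control 1, 2 and 3, from 58, 188 and 89 reads. In the injured libraries it stood at 97.6, 105 and 112 RPM, from 1419, 1212 and 1282 reads. The groups did not overlap, and the lowest injured value was 2.08 times the highest control value. The means were 35.0 ± 12.4 and 105 ± 7.09 RPM (SD, n = 3 each), a ratio of 3.00 and a log2 difference of 1.64 (SE 0.32). Control 1 and control 2 differed beyond counting error, with 95% exact Poisson intervals of 16.8 to 28.5 RPM and 40.4 to 54.1 RPM. These intervals cover counting error only. The coefficient of variation of the controls was 35.6%, against 9.71% from counting alone, and that of the injured libraries was 6.77%, against 2.79%.

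miR-21 was the most abundant of these miRNAs in control hemispheres. It stood at 127, 139 and 96.5 RPM in control 1, 2 and 3, from 334, 559 and 239 reads. In the injured libraries it stood at 252, 311 and 217 RPM, from 3661, 3582 and 2491 reads. The groups did not overlap, and the lowest injured value was 1.56 times the highest control value. The means were 121 ± 22.1 and 259.8 ± 47.3 RPM (SD, n = 3 each), a ratio of 2.15 and a log2 difference of 1.10 (SE 0.22). The coefficients of variation were alike in both groups, 18.3% in control and 18.2% in injured libraries. Counting alone gives 5.27% and 1.77%.

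**Figure D1:**
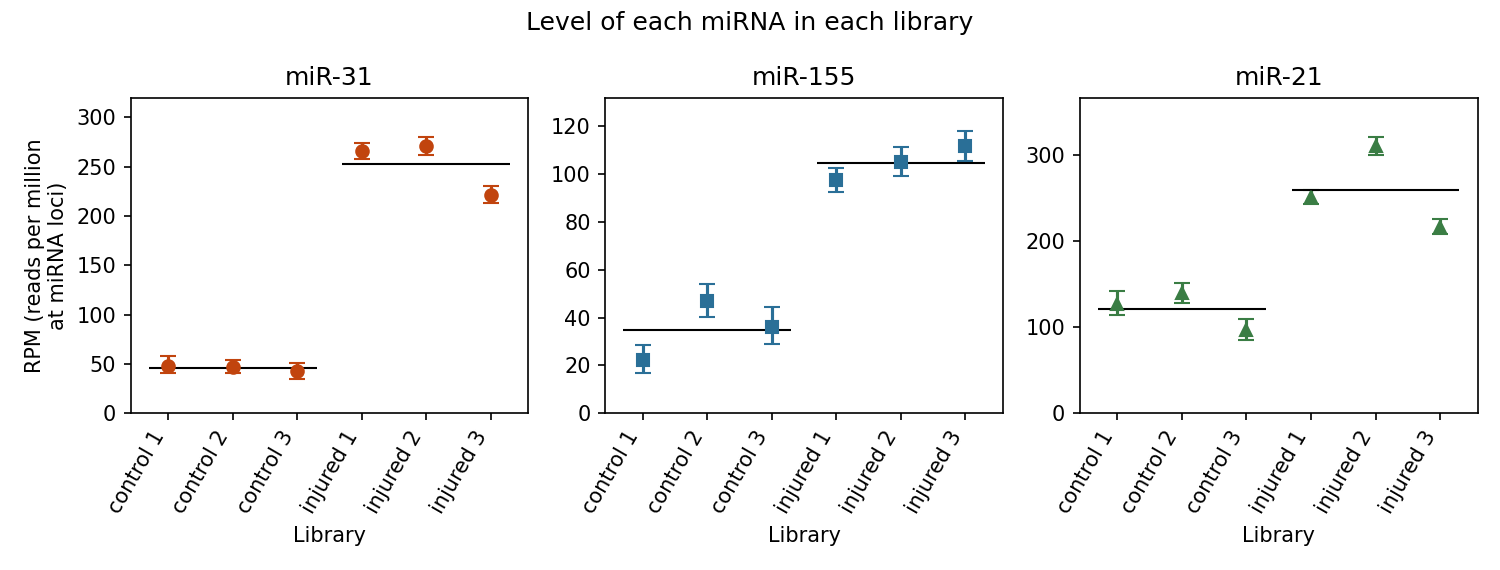
Level of miR-31, miR-155 and miR-21 in each library, in RPM on linear axes that start at 0 and differ between panels. Points are libraries, bars on points are 95% exact Poisson intervals and black lines are group means (n = 3). All injured libraries lie above all control libraries in each panel, and control 1 lies apart from control 2 for miR-155.

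The values above are those for which the 3 loci were chosen. As the background of the same contrast, 24 of 188 tested loci (12.8%) were called by edgeR's quasi-likelihood test at a Benjamini-Hochberg adjusted p below 0.05, 20 (10.6%) higher and 4 (2.13%) lower in injured hemispheres. The split was 15 higher and 6 lower with DESeq2 size factors and 11 and 5 with upper-quartile scaling. In RPM, the 3 injured libraries lay above the 3 control libraries at 32 of 188 loci (17.0%), and the ratio of mean RPM was at least 2 at 10 loci (5.32%). By that ratio miR-31, miR-155 and miR-21 held positions 4, 6 and 7 among the tested loci. All 3 passed the filter for testing, a mean normalised count above 10, and their control libraries alone had means of 365, 278 and 962 for miR-31, miR-155 and miR-21.

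Most other loci lay near equal levels in both groups. The median log2 ratio of mean RPM over the tested loci was 0.072. The 4 loci next to each member in the order of control levels were taken for comparison. In control libraries each of these 12 loci overlapped its member, and in injured libraries none did, a contrast that the choice of neighbours by control level and of members by their difference after injury largely fixed. miR-31 lay between mir194b, at 48.6 ± 15.0 RPM in control and 62.7 ± 18.2 RPM in injured libraries, and an unnamed locus, ENSDARG00000089119, at 44.6 ± 6.69 and 39.6 ± 3.58 RPM (SD, n = 3 each). The next locus below, dre-let-7b, stood at 43.6 ± 3.46 and 43.3 ± 4.25 RPM. miR-155 lay between mirlet7a-6, at 35.6 ± 5.66 and 37.9 ± 1.38 RPM, and dre-mir-728, at 34.7 ± 2.97 and 35.0 ± 6.34 RPM. miR-21 lay between dre-mir-733, at 127 ± 19.5 and 126 ± 10.7 RPM, and dre-mir-29b-1, at 117 ± 13.4 and 131 ± 20.4 RPM. Of these 12 loci 0 were called by edgeR, against 12.8% of all tested loci, and 0 by DESeq2. Among the 12, 1 had an unadjusted edgeR p below 0.05. That locus, MIR16-2, was called without control 2 (log2 fold change 0.73; edgeR adjusted p = 0.0417).

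**Figure D2:**
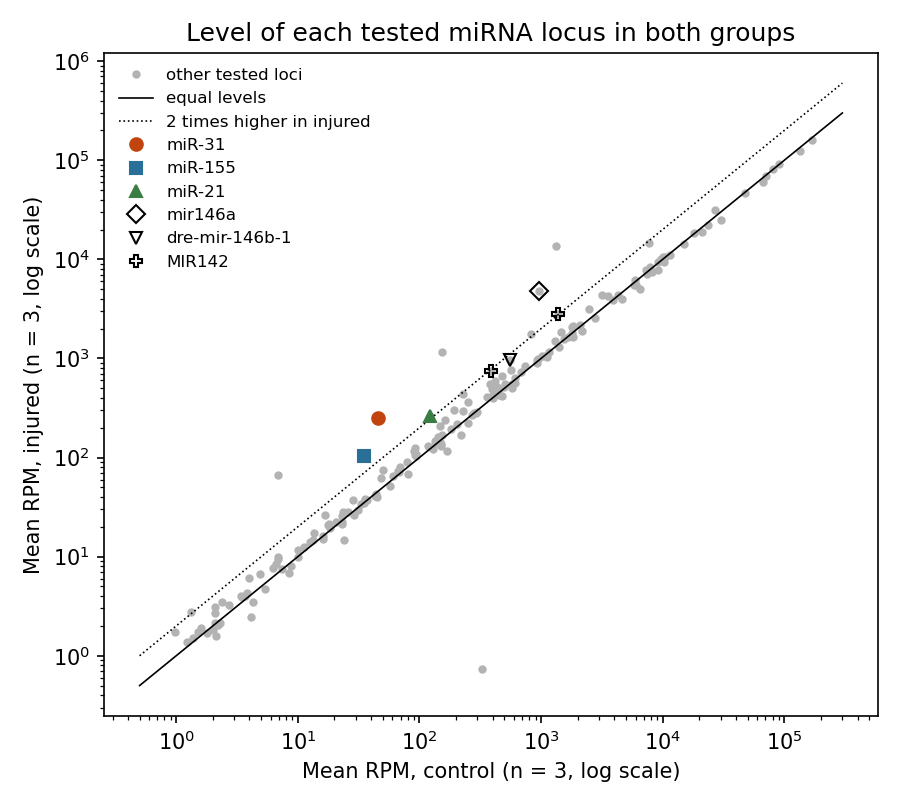
Mean level of each of the 188 tested loci in control (x axis) and injured (y axis) libraries, in RPM on log scales (n = 3 each). Open symbols are mir146a, dre-mir-146b-1 and the MIR142 loci, the solid line marks equal levels and the dotted line a level 2 times higher in injured hemispheres. miR-31 and miR-155 lie well above the dotted line, miR-21 lies just above it, and most other loci lie near the solid line.

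In control hemispheres miR-21 ranked 108, miR-31 ranked 124 and miR-155 ranked 131 by mean RPM among the 434 loci. Of these loci, 222 had a read in some library. In single control libraries the ranks ran from 103 to 111 for miR-21, from 123 to 126 for miR-31 and from 124 to 141 for miR-155. The control levels of miR-31 and miR-155 overlapped, and in control 2 both loci had 188 reads, while miR-21 lay above both in each control library. In injured hemispheres miR-21 ranked 91, miR-31 ranked 92 and miR-155 ranked 114. miR-31 thus moved up by 32 places, and miR-155 and miR-21 by 17 places each. Ranks in single injured libraries ran from 85 to 95 for miR-21, from 88 to 93 for miR-31 and from 112 to 114 for miR-155. The levels of miR-21 and miR-31 overlapped after injury, and miR-155 lay below both in each injured library.

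**Figure D3:**
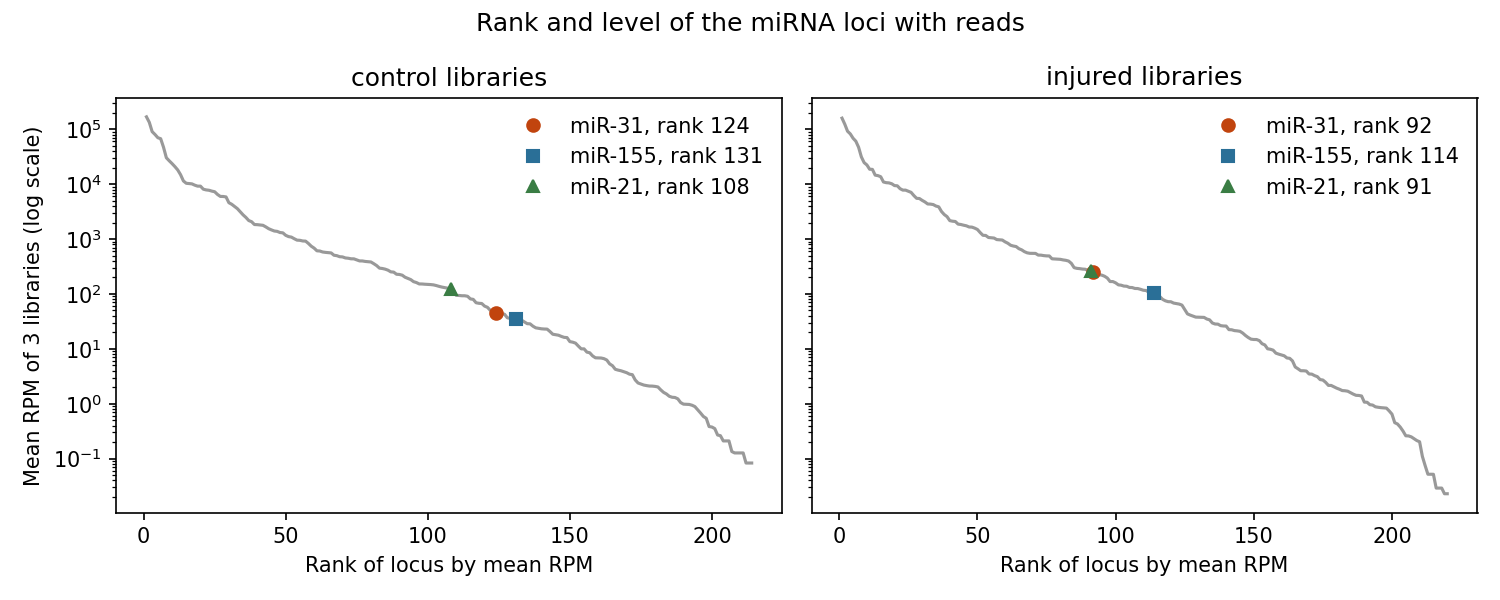
Mean level (RPM, log scale) of all miRNA loci with reads against their rank, in control and injured libraries (n = 3 each). The 3 marked loci lie in the middle of the range at ranks 108, 124 and 131 in control libraries and at ranks 91, 92 and 114 in injured libraries.

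The 3 loci together took 0.0202% ± 0.00294 of the reads at miRNA loci in control and 0.0617% ± 0.00683 in injured libraries (SD, n = 3 each). miR-21 made up 59.8% ± 4.58 of this sum in control and 41.9% ± 3.00 in injured libraries, while miR-31 made up 22.9% ± 2.46 and 41.0% ± 2.00 (SD, n = 3 each). The share of miR-155 was 17.3% ± 5.29 in control and 17.2% ± 2.74 in injured libraries. Ratios between loci of 1 library do not depend on how the library is scaled. For miR-21 both shares and ratios rest on 1 of its copies, and reads that fit several copies equally well may be missing. miR-31 stood at 0.380, 0.336 and 0.439 times miR-21 in control 1, 2 and 3, and at 1.06, 0.872 and 1.02 times miR-21 in injured 1, 2 and 3. These ratios did not overlap between the groups. The ratio of miR-155 to miR-21 ran from 0.174 to 0.372 in control and from 0.338 to 0.515 in injured libraries and overlapped. The ratio of miR-31 to miR-155 ran from 1.00 to 2.19 in control and from 1.98 to 2.73 in injured libraries and overlapped as well. Between libraries of the same number, both of these ratios were higher in injured than in control in 3 of 3 pairs. In the pair numbered 2, miR-155 to miR-21 was nearly equal, at 0.336 and 0.338. This count rests on a pairing by number that is uncertain. Across numbers the order could turn, with miR-31 to miR-155 at 2.19 in control 1 and 1.98 in injured 3.

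Leucocytes carry miR-142, a miRNA specific to blood-forming lineages, and the 2 MIR142 loci were followed as their marker. Their summed level was 1306, 2156 and 1844 RPM in control 1, 2 and 3 and 2606, 4222 and 3804 RPM in injured 1, 2 and 3. Both loci were called higher, with log2 fold changes of 0.99 at ENSDARG00000082167 (SE 0.24; edgeR adjusted p = 0.0382) and 0.91 at ENSDARG00000082467 (SE 0.21; edgeR adjusted p = 0.0328). Over all tested loci 10.6% were called higher, and 2 loci are too few to compare with that share. Neither call of the MIR142 loci held without control 1, control 2, control 3, injured 2 or injured 3. Neither MIR223 nor mir150, which also mark leucocytes, had any read (0 in all 6 libraries). A count of 0 still allows a level of 1.21 RPM in the library of least depth, at 3 reads and for counting error only. In tissue as a whole, more cells of a type and more of a miRNA per cell cannot be told apart. The part of the leucocyte marker in the levels of the 3 loci was not tested.

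Counted per 1000 reads at the MIR142 loci, the 3 miRNAs differed. They were chosen for their rise in RPM, so which of them stay apart on this scale is a description and not a test. miR-31 stood at 37.0, 21.8 and 23.0 in control 1, 2 and 3 and at 102, 64.2 and 58.1 in injured 1, 2 and 3. The groups did not overlap on this scale, and the ratio of the means was 2.74. The share of 17.0% of tested loci with injured above control libraries holds for RPM. On the MIR142 scale no such share over all loci was counted, so lack of overlap has no background here. miR-155 stood at 16.9, 21.8 and 19.5 in control and at 37.4, 24.9 and 29.4 in injured libraries, again without overlap and with a ratio of 1.58. Injured 2, at 24.9, lay close above control 2, at 21.8, which rests on 188 reads of miR-155. Counting error was not worked out on this scale, so the separation of miR-155 is uncertain. miR-21 stood at 97.3, 64.7 and 52.4 in control and at 96.6, 73.6 and 57.1 in injured libraries. The groups overlapped for miR-21, and the means of 71.5 ± 23.2 and 75.8 ± 19.9 (SD, n = 3 each) had a ratio of 1.06. Between libraries of the same number, the level per MIR142 in injured over control was 2.76, 2.95 and 2.53 for miR-31. It was 2.21, 1.14 and 1.51 for miR-155 and 0.992, 1.14 and 1.09 for miR-21. The pair numbered 2 thus gave the same factor for miR-155 and miR-21.

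**Figure D4:**
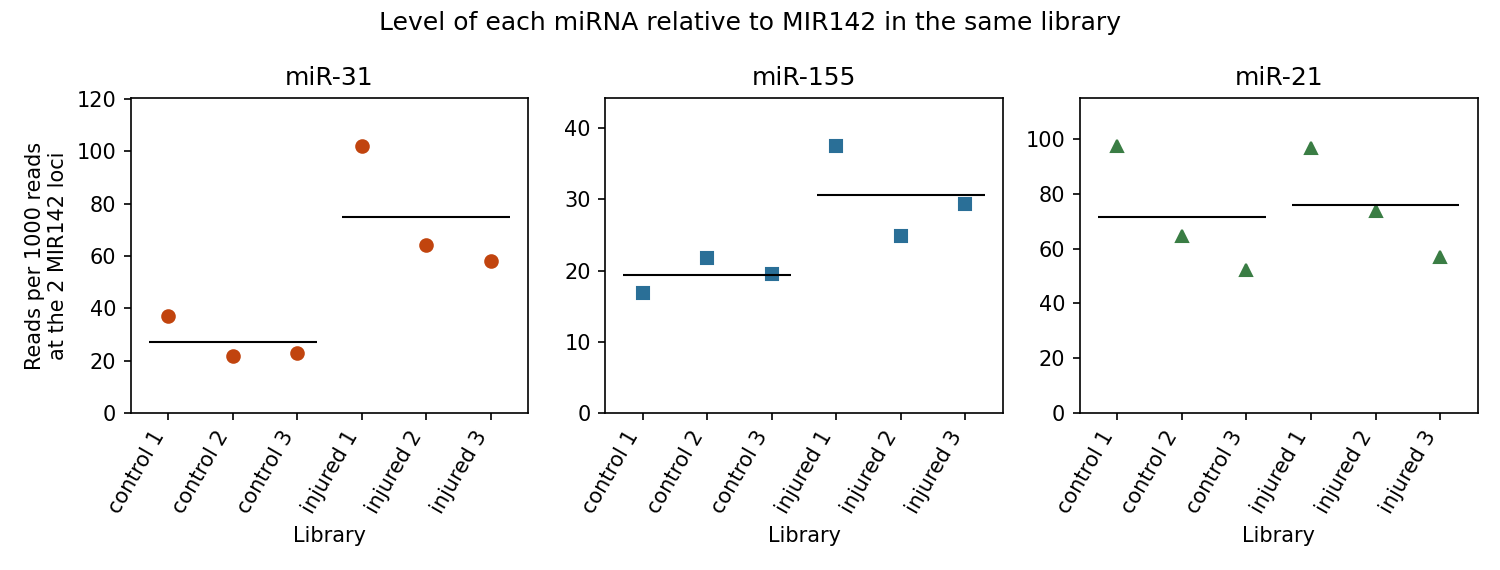
Reads at each locus per 1000 reads at the 2 MIR142 loci of the same library, on linear axes that start at 0 and differ between panels. Points are libraries and black lines are group means (n = 3). The injured libraries lie above the controls for miR-31 and miR-155 and overlap them for miR-21. For miR-155 injured 2 lies close above control 2, and counting error is not drawn.

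Within the groups the 3 loci did not vary in the same way. Deviations of log2 RPM from the group mean were compared over the 6 libraries, which are few and share their depth and scaling, so correlations are a description. miR-31 and miR-21 deviated together (r = 0.84), and both were lowest in control 3 and in injured 3. For miR-31 the coefficient of variation of the controls, 6.74%, was below the 8.65% from counting alone. Its place in control 3 therefore cannot be told from counting error. In injured 3 its exact Poisson interval lay below those of injured 1 and injured 2. miR-155 did not follow miR-31 (r = −0.32) or miR-21 (r = 0.0091). These last correlations rest on single controls, since without control 1 they became 0.026 and 0.52 and without control 2 −0.67 and −0.66. miR-155 deviated with the MIR142 loci (r = 0.81 and 0.75), all of them lowest in control 1 and in injured 1. miR-155 deviated by −0.59 in control 1 and 0.49 in control 2, but by −0.10, 0.0066 and 0.095 in injured 1, 2 and 3. Its spread thus came mostly from control 1 and control 2, and these correlations were not repeated without either. Its exact Poisson intervals in injured 1 and injured 2 overlapped. Among injured libraries miR-155 was highest in injured 3 and the MIR142 loci in injured 2. The correlations with the MIR142 loci were negative for miR-31 (r = −0.30 and −0.28) and weak for miR-21 (r = 0.16 and 0.15).

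**Figure D5:**
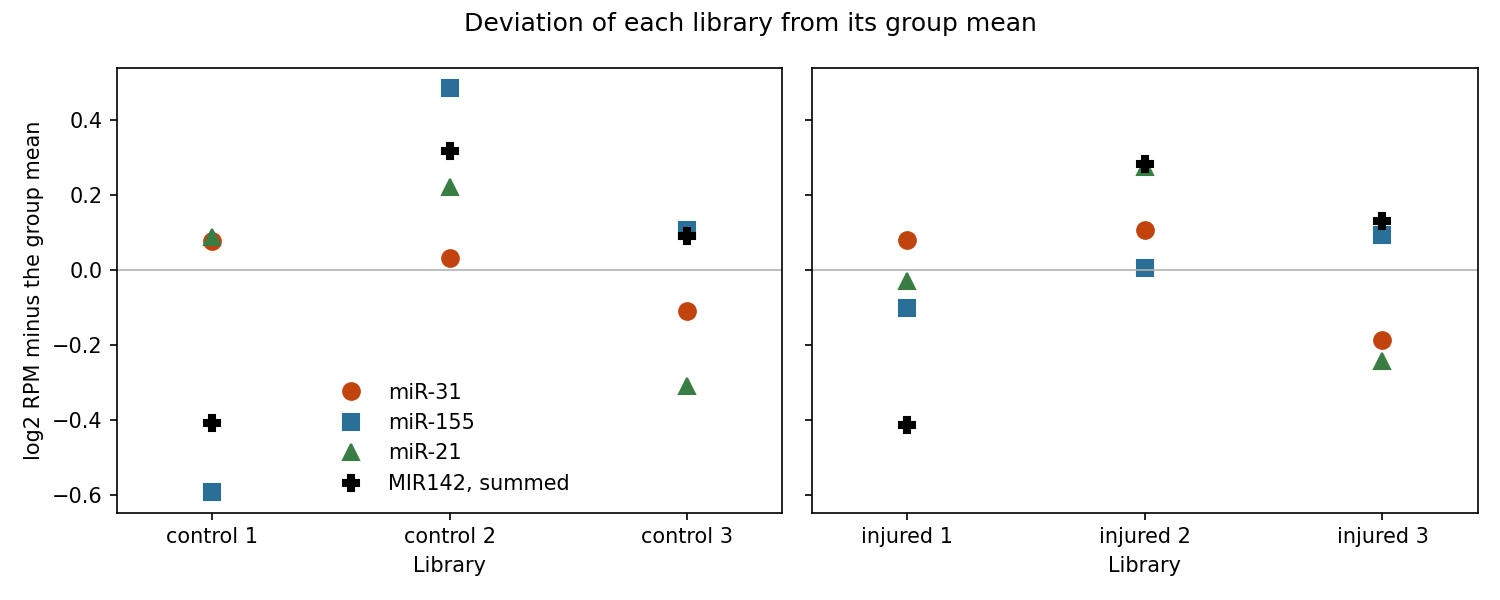
Deviation of log2 RPM from the group mean in each library for miR-31, miR-155, miR-21 and the summed MIR142 loci (n = 3 per group). miR-155 and MIR142 are lowest in control 1 and injured 1, while miR-31 and miR-21 are lowest in control 3 and injured 3. For miR-31 the place of control 3 cannot be told from counting error. For miR-155 the exact Poisson interval of injured 1 overlaps the next higher one.

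Over all 6 libraries, where the group difference sets much of the correlation, the loci most like miR-31 in log2 RPM were mir146a (r = 0.99), dre-mir-146b-1 (r = 0.98) and mir30d (r = 0.97). Those most like miR-155 were mir222b (r = 0.99), dre-mir-731 (r = 0.98) and dre-mir-462 (r = 0.97). Those most like miR-21 were mir457a (r = 0.99), dre-mir-15b (r = 0.98) and MIR15B (ENSDARG00000081366; r = 0.97). The median correlation over tested loci was 0.22 for miR-31, 0.29 for miR-155 and 0.26 for miR-21.  mir222b was also among the 3 loci closest to miR-155 by deviations within the groups (r = 0.93), and mir457a was among those closest to miR-21 (r = 0.94).

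Other miRNA families known in mammals from Toll-like receptor and NF-κB signalling were compared with miR-21 and miR-155. Of the families mir-9, mir-125, mir-132, mir-146, mir-147, mir-187 and mir-223, 17 loci were tested, none of them of mir-147, which had no named locus, or of mir-223, which had no reads. Of these 4 were called higher and 0 lower, against the background of 10.6% and 2.13%, which includes the 3 members. The lists of families and markers used here were drawn up with earlier results of these data known. Their counts are therefore a description and not a test. The 4 calls came from mir-146 and mir-125 alone, and 17 loci are too few to tell these shares apart. The median log2 fold change of the 17 was 0.00, near that of all tested loci, 0.03. DESeq2 likewise called 4 higher and 0 lower, and 5 of the 17 had an unadjusted edgeR p below 0.05. mir-132 is also on the lists for wound repair and neurons, mir-223 on that for leucocytes, and mir-203 and mir-205 stand on those for wound repair and epithelia.

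The called loci of this list were mir146a, dre-mir-146b-1 and both loci named MIR125B1, while another mir-125b locus, mir125b-3, stood at 399.8 ± 10.5 RPM in control and 397 ± 36.2 RPM in injured libraries (SD, n = 3 each) and was not called. mir146a, which in mammals is induced by NF-κB and restrains its adaptors TRAF6 and IRAK1, rose from 956 ± 141 to 4748 ± 549.6 RPM (SD, n = 3 each). Its log2 difference was 2.28 with an SE of 0.13, at an edgeR adjusted p of 2.05e-05. Its paralogue dre-mir-146b-1 rose from 559 ± 39.5 to 968 ± 26.1 RPM (log2 fold change 0.75, SE 0.08; edgeR adjusted p = 0.00128). MIR125B1 rose at ENSDARG00000081350, from 567 ± 50.5 to 772 ± 28.3 RPM (log2 fold change 0.41, SE 0.09; edgeR adjusted p = 0.0328). It also rose at ENSDARG00000080032, from 148 ± 19.1 to 210.2 ± 13.9 RPM (log2 fold change 0.47, SE 0.12; edgeR adjusted p = 0.0466), a call that was lost with the replicate number as a block (adjusted p = 0.0889). Neither MIR125B1 call held without control 1, control 2, injured 2 or injured 3. ENSDARG00000081350 also lost its call without control 3, and ENSDARG00000080032 without injured 1. mir187 stood at 8111 ± 1060 and 7430 ± 549 RPM and dre-mir-132-2 at 133847 ± 7366 and 124039 ± 6093 RPM, and neither was called. mir-9 loci were not called either, the most abundant of them, mir9-4, standing at 80475 ± 3167 and 82402 ± 6312 RPM.

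Of the families known from wound repair in mammalian skin besides miR-21 and miR-31, namely mir-99, mir-100, mir-132, mir-203, mir-205 and mir-210, 10 loci were tested. By edgeR 0 were called in either direction, against 12.8% of all tested loci, and 10 loci are too few to tell these shares apart. Of the 10, 0 had an unadjusted edgeR p below 0.05, and DESeq2 called 0. Their log2 fold changes lay between −0.15 and 0.30 with a median of 0.00. mir210, a miRNA induced by hypoxia in mammals, stood at 2760.2 ± 60.2 RPM in control and 2563 ± 171 RPM in injured libraries (SD, n = 3 each). dre-mir-205, an epithelial miRNA, stood at 391 ± 105 and 492 ± 133 RPM. Both lay in overlapping ranges in the groups.

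Markers of other cell types that the dissected hemisphere could hold were set beside the members. Over all tested loci 12.8% were called, so 0 calls in lists this short do not show that the markers were unchanged. Of the erythrocyte loci MIR144 and MIR451A 0 of 2 were called, with summed levels of 2006 to 2506 RPM in control and 2326 to 2754 RPM in injured libraries. The mir-126 loci of endothelium had 0 of 2 called, with 7791 to 8098 and 7736 to 7819 RPM. The epithelial loci of mir-141, mir-200, mir-203, mir-205 and mir-429 had 0 of 9 called, with 1482 to 1780 and 1324 to 2156 RPM. The oligodendrocyte loci of mir-219 and mir-338 had 0 of 3 called, with 64.0 to 67.9 and 55.1 to 66.6 RPM. The muscle loci summed to 3.05 to 5.25 RPM and 4.12 to 6.19 RPM, and the 1 tested locus was not called. None of these lists had a locus with an unadjusted edgeR p below 0.05 or a call by DESeq2. Of 19 neuron loci 1 was called, mir128-1, in the lower direction, against 2.13% lower over all tested loci. It fell by 0.40 on the log2 scale (SE 0.07; edgeR adjusted p = 0.0157), a call lost without control 1, control 2, control 3 or injured 3. Of the 19, 2 had an unadjusted edgeR p below 0.05, the other being MIR129-2 (ENSDARG00000083082; log2 fold change −0.76; edgeR adjusted p = 0.0849). The neuron loci summed to 134581 to 147681 RPM in control and 126643 to 139241 RPM in injured libraries. Most of this sum came from dre-mir-132-2, with means of 133847 and 124039 RPM, so it says little about the other neuron loci.

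The count tables hold a second locus named MIR21, ENSDARG00000082187. It had 0 reads in each library, so that levels up to 0.206 RPM in the deepest and 1.21 RPM in the shallowest library remain possible at 3 reads. The study's naming puts the reads at ENSDARG00000080484 with the copy dre-mir-21-2. In RefSeq's annotation of GRCz12tu, an assembly other than that used for counting, dre-mir-21-2 lies between the genes vmp1 and tubd1, and dre-mir-21-1 between rps6kb1a and ptrh2. vmp1 encodes a membrane protein of autophagy and is the neighbour of MIR21 in mammals too. Reads that fit both copies equally well would have been removed by the limit on mapping quality, so the level of miR-21 is uncertain as a sum over copies, and whether any were removed was not tested. dre-mir-31 overlaps a long non-coding RNA gene, LOC141375218, with LOC101883122 and hgfac as the protein-coding genes on either side, and mir155 lies between LOC101885604 and mrpl39. miR-31 and miR-155 have 1 locus each in the count tables. No other miRNA gene lies within 10000 bases of these 4 RefSeq genes.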

How the data were processed

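Small RNAs of 3 control and 3 injured telencephalic hemispheres were sequenced by the authors. Per the study's methods, adaptors were trimmed with Cutadapt, inserts of mature miRNA length were kept, reads were aligned to GRCz11 with STAR with up to 1 mismatch and a mapping quality of 30, and HTSeq counted them in union mode. The submitters' processing notes name BWA as the aligner instead. Their versions were not found in the sources. The deposited values are raw read counts per miRNA locus, 1 table per library. The 5 HTSeq summary lines were left out; reads outside miRNA loci were 11.4% to 12.3% and ambiguous reads 0.0103% to 0.0125% of each table. Symbols, partly human-style, came from a table that named 331 of 434 loci.

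Member levels were scaled to 1000000 reads at miRNA loci (RPM), and 0.5 reads were added before log2. Loci with a mean normalised count above 10 (188 of 434) were tested with edgeR 4.0.16 in R 4.3.3 (TMM scaling, quasi-likelihood test, two-sided, group as the only term, Benjamini-Hochberg adjustment over all tested loci, threshold 0.05). The fitting code was tested on simulated data. Replicates of a group differed beyond sampling noise (chi-square per degree of freedom 42.8 to 1982). The members and lists were chosen with earlier results of these data known. Named loci were the members, their families, list loci, the 2 loci above and below each member in control level, and the 3 most correlated with it. Alternatives were DESeq2 1.42.0, Bonferroni adjustment, other scalings and filters, a block for the replicate number, and fits leaving out 1 library at a time. The main fit and its p-values leave out any pairing of libraries by number.

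Same-numbered libraries deviated together from their group means across loci (r = 0.34, 0.13 and 0.12), and libraries of different number had r from −0.24 to 0.065. Deviations sum to 0 within a group, so positive values for some pairs go with negative values for others. The numbers were used as a possible pairing, as the study's contralateral control would give. With 2 reads added before log2 the third value was 0.057, below the 0.10 of control 3 with injured 2, so the pairing is uncertain. No source used here says that libraries of 1 number share a fish. Sequences of the miRNAs were not used here.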

Additional observations from a re-analysis of the deposited data

How the results depend on the processing

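The log2 ratio of each miRNA kept its sign under all alternatives, of which scaling to MIR142 was added after seeing the data. The loci were chosen for their rise in these libraries, so the kept sign is a description and not support. On the log2 scale the ratio of miR-31 was 2.46, and 2.31 with upper-quartile scaling. Scaled to the reads of the MIR142 loci the log2 ratios were 1.46 for miR-31, 0.66 for miR-155 and 0.084 for miR-21. For miR-21 the groups overlapped on this scale, and the pair numbered 1 had an unlogged ratio of 0.992. Leaving out 1 library gave 2.41 to 2.55 for miR-31, 1.34 to 1.85 for miR-155 and 0.95 to 1.22 for miR-21, the outer values of miR-155 coming without control 1 and control 2. Averaged over libraries of the same number, without added reads, the log2 ratios of miR-31, miR-155 and miR-21 were 2.46, 1.65 and 1.10. By arithmetic these equal the ratios of geometric means, so for the ratios the block is not a separate alternative. Correlations of deviations that changed sign were 0.026 for miR-31 and miR-155 without control 1 (range −0.67 to 0.026), and −0.072 with TMM, −0.66 without control 2 and −0.0019 without injured 1 for miR-155 and miR-21 (range −0.66 to 0.52).

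Of the 24 calls over all loci 6 remained under Bonferroni adjustment, 4 higher and 2 lower. With upper-quartile scaling the median over tested loci shifted by −0.11, with 11 calls higher and 5 lower, and DESeq2 gave 9 lower. Without 1 library 10 to 24 loci were called, 7 to 18 higher and 3 to 6 lower, with 10 without control 1, control 3 or injured 3 and 14 without control 2. The list of Toll-like receptor families had 2 calls with DESeq2 size factors, upper-quartile scaling or Bonferroni adjustment and 2 to 3 without 1 library. The leucocyte list had 0 under Bonferroni adjustment and 0 to 2 without 1 library, and the neuron list 0 and 0 to 1 lower. mir146a and dre-mir-146b-1 were called under all 14 alternatives. Where the stricter limit or fewer libraries do not account for a difference, the cause was not tested. With the replicate number as a block 22 loci were called, 20 of them among the 24; among the called loci of the lists it ended the call of ENSDARG00000080032 alone, and it called none of the neighbours in control level. Depth limits the control libraries most, with 58 reads of miR-155 in control 1.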

Other observations

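By deviations from the group mean over the 6 libraries, the loci closest to miR-31 were MIRLET7A2 (ENSDARG00000081785; r = 0.99), MIR128-2 (r = 0.94) and dre-mir-724 (r = 0.92). Those closest to miR-155 were MIR9-1 (r = 0.98), MIR3074 (r = 0.96) and mir222b (r = 0.93), and those closest to miR-21 were MIR26A1 (r = 0.96), mir457a (r = 0.94) and mir128-1 (r = 0.94). MIR9-1 had 4 to 31 reads per library. Correlations of this size over 6 libraries are a description only, and 4 or 5 loci reached 0.9 with each member. Between libraries of the same number, the ratio of RPM in injured over control was 5.50, 5.78 and 5.21 for miR-31, 4.42, 2.24 and 3.11 for miR-155 and 1.98, 2.23 and 2.25 for miR-21.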
